A study of Mus musculus with 112 samples.

Results

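The 4 LSD1 CI libraries were compared with the 8 wild-type (WT) libraries numbered 4 to 11, 12 RNA-seq libraries of the 112 in the series. All 12 came from V6.5 mouse embryonic stem cells (ESCs), a male line of mixed strain background, kept in the naive state in serum-free N2B27 medium with 2 kinase inhibitors and LIF. The LSD1 CI cells (genotype label LSD1CI) carried the changes A539E and K661Q, which remove the catalytic activity, in the endogenous Lsd1 gene (Kdm1a in the count files), and per the study still made the protein at a like level. They came from 2 independent clones, and the labels do not say which library belonged to which clone. The study asked how much of the role of LSD1 in gene regulation and cell fate depends on its demethylase activity, and also sequenced LSD1 knockout (KO) cells, cells without the CoREST subunits RCOR1 and RCOR2 or without MLL4, and differentiated cells. The members were chosen by the genotype and number in the sample titles. The other WT ESC libraries, 1 to 3, stayed out because they had been aligned together with the LSD1 KO libraries and in another way than the rest.

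LSD1 is a flavin-dependent enzyme that removes methyl groups from mono- and dimethylated lysine 4 of histone H3, a mark of enhancers and promoters. It works in the CoREST complex beside the histone deacetylases HDAC1 and HDAC2 and a RCOR protein that holds the enzymes together, so the protein can act both through demethylation and through its partners. In ESCs it is known for silencing enhancers and for keeping genes of germ cells and of later lineages off.

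Both altered codons lie on the minus strand of Kdm1a (mm9, chr4:136106448-136158638), and the unaltered coding sequence around them is shown to place the mutation, with the altered codon in capitals. In the transcript used here the residues count as 540 and 662, 1 higher than in the names of the alleles. The codon for A539E is in coding exon 13 of 19 (chr4:136113602-136113604) and the codon for K661Q is in coding exon 15 (chr4:136110128-136110130), next to the junction with its neighbouring exon, which the window crosses.
A539E site: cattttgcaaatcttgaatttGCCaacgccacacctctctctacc
K661Q site: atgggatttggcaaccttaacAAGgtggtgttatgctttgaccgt
The deposited counts are per gene, so they show how much Kdm1a RNA was made and not which codon it carried.

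The 12 libraries held between 17.22 M and 40.71 M counts each (M, counts in units of 1e6), and between 14.87% and 23.99% of them fell on Rn45s, a ribosomal precursor. On the first principal component, with 53% of the variance, WT 6, 7, 10 and 11 lay at 60.65 to 98.04 and the other 4 WT libraries and all LSD1 CI libraries between −34.14 and −44.55. Xist, the RNA that coats an inactive X chromosome, was 26.3, 38.2, 83.2 and 60.5 CPM (counts scaled to a library total of 1e6) in those 4 WT libraries, at most 0.871 CPM in the other WT libraries and 0.220 to 1.03 CPM in LSD1 CI. The labels give no batch for this split, which runs within WT, and the main counts are therefore given with and without WT 6, 7, 10 and 11. On the second component (13.1% of the variance) LSD1 CI libraries 1 and 3 lay at 15.2 and 17.04 and libraries 2 and 4 at 49.65 and 45.79. Markers that define naive ESCs, Pou5f1, Sox2, Nanog, Esrrb, Zfp42, Klf4 and Tfcp2l1, summed to 3207 to 3576 CPM in LSD1 CI and 3213 to 4139 CPM in WT. None of these 7 nor of the markers of fibroblasts, endoderm, mesoderm, neural cells or trophoblast that could be tested passed the test, and the other lineages summed to at most 13.7 CPM in any library. Col1a2, Col3a1, Prrx1, Gata6, Foxa2, Mesp1, Mixl1, Neurog2, Cdx2, Elf5 and Gata3 stayed under 1 CPM in all 12.

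**Figure D1:**
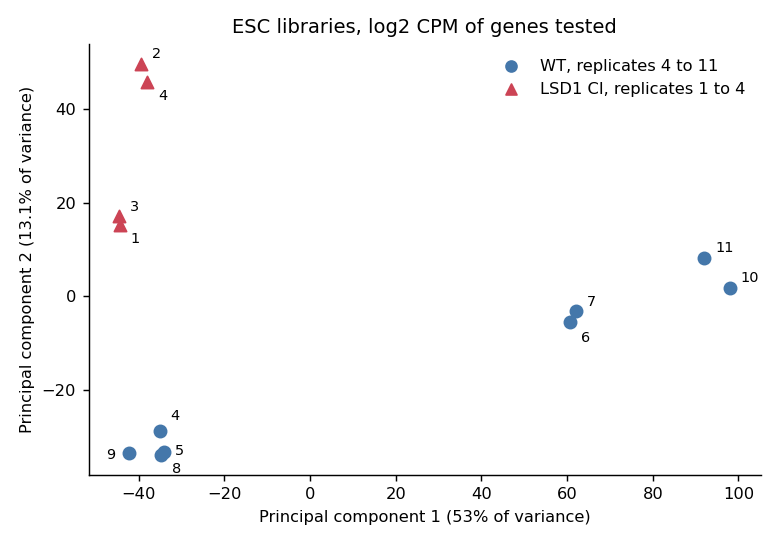
Each point is an ESC library (circles, WT 4 to 11; triangles, LSD1 CI 1 to 4), placed by its first (53% of variance) and second (13.1%) principal components of log2 CPM. WT 6, 7, 10 and 11 stand to the right at 60.65 to 98.04, while LSD1 CI and the other WT libraries separate from each other along the second component.

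With catalytically inactive LSD1, 152 genes were higher and 50 were lower, of 15074 tested, or 1.01% and 0.332%. Calls rested on edgeR's quasi-likelihood test and needed a log2 fold change past 1, either way, with a p under 0.01 after Benjamini-Hochberg adjustment. The changes were skewed towards higher expression, with 51 genes above a log2 fold change of 2 and 13 below −2, while the median over all genes tested was −0.021. In 150 of the 152 and 49 of the 50 the 4 LSD1 CI libraries lay wholly outside the WT range, which 4.46% of all genes tested did on the higher and 2.34% on the lower side. The exceptions were Aurkc, Prnp and Myc. Without WT 6, 7, 10 and 11, a setting chosen after seeing the data, 287 genes were higher and 101 lower, and 122 of the 152 and 38 of the 50 remained called. With a single pair of WT libraries as the only controls fewer calls remained. Of the 152, 70 remained with WT 4 and 5, 101 with WT 6 and 7, 77 with WT 8 and 9 and 92 with WT 10 and 11. Of the 50, 21, 37, 21 and 26 remained in the same order. Leaving out LSD1 CI library 2 left 80 higher and 22 lower genes, library 4 left 90 and 26, and library 3 left 31 lower genes. Whether the libraries came from separate cultures is not given, so the p-values measure the spread between libraries, which may be technical. The fit also took the 4 LSD1 CI libraries as 4 replicates although they came from 2 clones. The p-values and standard errors therefore do not measure the spread between clones.

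The RNA of LSD1 itself was close to the WT level. Kdm1a measured 182, 181, 172 and 182 CPM in LSD1 CI libraries 1 to 4 and 185 (lowest), 203 (median) and 226 CPM (highest) in WT. All 4 mutant values were below every WT library by a small margin, and the log2 fold change of −0.20 ± 0.06 (standard error) did not pass (edgeR quasi-likelihood adjusted p = 0.0722). Against their own WT controls Kdm1a differed by −0.46 ± 0.07 in LSD1 CI embryoid bodies (EBs), −0.60 ± 0.07 in serum cells and −0.63 ± 0.06 in epiblast-like cells (EpiLCs), with edgeR quasi-likelihood adjusted p of 0.00261, 0.00303 and 2.35e-05. In LSD1 KO ESCs, whose promoter and first exon are deleted, Kdm1a was lower by far more, at −4.93 ± 0.16.

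None of the 16 tested genes of the LSD1 and CoREST complex was called, against 1.34% of all genes, and their median log2 fold change was 0.02. Besides Kdm1a, only Rcor2, which encodes an RCOR protein, had groups that did not overlap, at 128, 121, 122 and 127 CPM in LSD1 CI against 87.5, 97.0 and 103 CPM in WT. Rcor2 was higher in all 4 libraries by only 0.37 ± 0.06 on the log2 scale, under the fold threshold (edgeR adjusted p = 0.00247). None of 11 other H3K4 demethylase and methyltransferase genes was called either (median −0.03).

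Pluripotency genes stayed near WT. Of 12 core genes only Lin28a, an RNA-binding protein that blocks let-7 maturation, was called, and of 14 naive genes none was, with medians of −0.16 and −0.11. Of all genes tested 1.34% were called. The log2 fold changes were −0.16 ± 0.07 for Pou5f1, 0.04 ± 0.14 for Sox2, 0.02 ± 0.06 for Nanog and −0.13 ± 0.09 for Esrrb, and the sign for Sox2, Nanog and Esrrb turned under some choices of WT libraries. Lin28a was 141, 72.0, 124 and 60.3 CPM in LSD1 CI and 150, 223 and 280 CPM in WT. Libraries 2 and 4 were the lowest, libraries 1 and 3 came close to the lowest WT library, and the call (log2 fold change −1.15 ± 0.22, edgeR adjusted p = 0.00796) was lost in 15 of 26 alternatives, among them the removal of LSD1 CI library 2, 3 or 4 or of WT 4, 5, 8, 9 or 10 (adjusted p up to 0.124). Klf2, a naive factor, differed by −0.84 ± 0.23 and passed neither the fold threshold nor that of the adjusted p (edgeR, 0.0474). Of 13 genes of formative and primed epiblast Lef1 was called higher (1.82 ± 0.29), a Wnt effector at 8.53, 22.1, 11.2 and 25.3 CPM against at most 6.79 CPM in WT. Its call was lost with any single pair of WT libraries and when LSD1 CI library 2 or 4 was left out, with an edgeR adjusted p of up to 0.0828 over the alternatives.

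Of all gene lists, that of X-linked testis genes held the most higher calls. Of 40 X-linked genes with testis expression in the list, 17 could be tested, 11 were called higher (1.01% of all genes were), none lower, and the median log2 fold change was 2.85 against −0.021 over all genes. Because a gene without counts in WT passes the filter only where LSD1 CI holds counts, the 17 are the part of the list that ESCs of either genotype express. The filter thus favours higher members, and the share called and the median are not read as support. Most of the 11 are near-identical copies in a single run, described below. Usp26 (chrX:49107136-49154410), a deubiquitinase of the testis, was 59.3, 56.5, 51.2 and 46.4 CPM in LSD1 CI and 1.69, 3.77 and 5.57 CPM in WT. The lowest LSD1 CI library was far above the highest WT library, and the log2 fold change was 3.91 ± 0.24 (edgeR quasi-likelihood adjusted p = 1.03e-06). In all 26 alternatives Usp26 stayed called, between 3.39 and 4.76.

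The other called X-linked members were Rhox1, a homeobox gene of the reproductive cluster (2.54 ± 0.48), and 9 genes of the Xlr3, Xlr4 and Xlr5 families, which encode relatives of the synaptonemal complex protein SYCP3. With Pnma5 (1.86 ± 0.19) those 9 formed the longest run of neighbouring called genes, 10 on chrX between 70279320 and 70535854. Their copies are near-identical, so the split of reads among them is uncertain and only the direction of the family as a whole can be read. Xlr3a was 36.5, 50.9, 29.1 and 46.7 CPM in LSD1 CI against 3.13, 6.51 and 11.01 CPM in WT (log2 fold change 2.63 ± 0.28). Xlr3c was 5.20, 37.5, 5.53 and 31.2 CPM against 1.04, 1.32 and 3.22 CPM (3.49 ± 0.53). All LSD1 CI libraries were above WT for both, but for Xlr3c libraries 2 and 4 were far above libraries 1 and 3, and its call was lost with any single pair of WT libraries.

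X-linked genes outside the list were also among the largest. The testis transcript 1700013H16Rik (chrX:51046078-51061008) was 15.4, 39.7, 20.6 and 37.2 CPM in LSD1 CI and 0, 0.163 and 0.825 CPM in WT, the largest fold change among genes named by the rule (6.41 ± 0.62). Gm364 was 11.9, 8.64, 9.74 and 8.70 CPM against 0.425, 0.722 and 1.44 CPM (3.64 ± 0.29). Both were low or barely detected in every WT library and kept their calls in all alternatives. In all 18 of 525 X-linked genes were called higher (3.43%) and 2 lower, while the median of the chromosome was −0.008, close to that of all genes. Among chromosomes 1 to 19 the highest share was that of chromosome 6, with 16 of 702 (2.28%), and the medians lay between −0.054 and 0.03. On the Y chromosome, described below, 2 of 6 genes were called higher (33.3%), with a median of 2.137.

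Genes of meiosis and of germ cell RNA metabolism, nearly all of them autosomal, held fewer calls, each of them higher. Of 30 meiosis genes tested 2 were called higher and none lower, with a median of 0.69. Of 22 genes for germ cell RNA binding and piRNA 4 were called higher and none lower, with a median of 0.72. Over all genes tested 1.01% were called higher and 0.332% lower. Wholly above WT lay 8 and 9 members of these lists, called or not (4.46% of all genes did). The log2 fold changes went both ways, from −1.6 to 2.2 with 26 of 30 above 0 and from −0.7 to 2.61 with 15 of 22 above 0. Dazl (chr17:50418718-50432945), which binds mRNAs that germ cells need, was 31.0, 50.6, 29.1 and 47.6 CPM in LSD1 CI and 6.50, 8.14 and 14.9 CPM in WT. The 4 libraries lay above WT, libraries 2 and 4 highest, with a log2 fold change of 2.10 ± 0.20 (edgeR adjusted p = 5.87e-05) that lost its call only when WT 8 and 9 were the only controls.

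Hormad1 (chr3:95363599-95391785), a protein of the meiotic chromosome axis, was 54.5, 68.8, 51.2 and 61.2 CPM in LSD1 CI against 8.92, 18.6 and 25.7 CPM in WT. Smc1b (chr15:84895119-84962387), a cohesin subunit made in meiosis, was 20.6, 38.2, 16.6 and 28.3 CPM against 2.58, 5.10 and 9.71 CPM. The log2 fold changes were 1.79 ± 0.21 and 2.20 ± 0.33, and neither gene overlapped between the groups. Smc1b lost its call with WT 4 and 5 or WT 8 and 9 as the only controls (edgeR adjusted p up to 0.0545), and Hormad1 kept its call in all 26 alternatives. Rnf17, a Tudor-domain protein of the germ granule, had the highest counts of the called members at 200, 210, 190 and 196 CPM against 60.9, 74.7 and 109 CPM, with a tight log2 fold change of 1.38 ± 0.13 (edgeR adjusted p = 3.33e-05). Stk31, a germ cell Tudor-domain kinase relative, was 15.0, 28.6, 14.5 and 28.4 CPM against 6.73, 7.38 and 10.5 CPM, and Fkbp6, a co-chaperone of the piRNA pathway, was 19.3, 22.2, 18.9 and 19.6 CPM against 2.13, 3.48 and 8.04 CPM. Stk31 (1.44 ± 0.19) showed the same split of libraries 2 and 4 from 1 and 3 as Dazl did and lost its call with any single pair of WT libraries (edgeR adjusted p up to 0.104), and Fkbp6 (2.15 ± 0.35) was even across the 4, with a call that was lost only without library 2 (edgeR adjusted p = 0.0125).

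Some genes of these lists moved below the fold threshold. Tex15 was at 103, 86.8, 104 and 92.4 CPM against 42.4, 49.95 and 67.1 CPM in WT, a log2 difference of 0.90 ± 0.10, and Dmc1, the meiotic recombinase, differed by 0.87 ± 0.21. Sohlh2, a transcription factor of early germ cells that the lists do not hold, was 45.9, 67.7, 42.0 and 59.9 CPM against 7.001, 12.1 and 19.9 CPM (2.10 ± 0.26), and it, Tex15 and Dmc1 were named after their values had been seen. Factors that keep germline genes silent in ESCs showed no call among 21 tested, with a median of 0.01. Mga, Max, L3mbtl2, Pcgf6 and E2f6, members of a repressor complex that binds E-boxes and E2F sites at such genes, differed by 0.13, −0.12, 0.02, 0.13 and 0.18 on the log2 scale, and Dnmt1 by 0.13.

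Promoters of 5 of the genes called higher are printed because CACGTG (an E-box, the same on both strands) and TCCCGC or GCGGGA (an E2F-type motif on either strand) are the letters that complex is known to bind. The windows run from 250 bases before to 50 bases after the annotated start, from RefSeq on build GRCm38.p6, another build than the mm9 of the counts, and were matched by symbol, with the first of 2 windows shown for Hormad1 and Stk31. Motif matches are in capitals.
Hormad1, chr3:95559427-95559726, plus strand: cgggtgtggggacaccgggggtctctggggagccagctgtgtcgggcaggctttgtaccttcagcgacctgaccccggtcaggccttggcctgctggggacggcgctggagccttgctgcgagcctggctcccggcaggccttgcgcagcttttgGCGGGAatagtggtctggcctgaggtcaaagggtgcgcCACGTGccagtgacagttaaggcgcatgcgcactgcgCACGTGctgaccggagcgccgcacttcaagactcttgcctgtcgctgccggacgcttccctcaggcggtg
Stk31, chr6:49395289-49395588, plus strand: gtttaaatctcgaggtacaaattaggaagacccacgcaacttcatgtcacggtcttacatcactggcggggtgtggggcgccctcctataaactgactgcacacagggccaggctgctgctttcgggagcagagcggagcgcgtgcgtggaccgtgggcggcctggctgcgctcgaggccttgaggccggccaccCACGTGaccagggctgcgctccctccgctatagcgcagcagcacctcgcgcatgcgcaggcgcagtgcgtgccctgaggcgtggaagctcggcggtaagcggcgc
Smc1b, chr15:85131908-85132207, minus strand: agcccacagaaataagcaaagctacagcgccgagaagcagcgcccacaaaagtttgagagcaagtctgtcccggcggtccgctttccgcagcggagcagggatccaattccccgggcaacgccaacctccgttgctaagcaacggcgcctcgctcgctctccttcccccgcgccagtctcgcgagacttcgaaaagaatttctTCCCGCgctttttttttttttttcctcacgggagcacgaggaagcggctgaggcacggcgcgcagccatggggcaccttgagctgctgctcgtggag
Dazl, chr17:50293571-50293870, minus strand: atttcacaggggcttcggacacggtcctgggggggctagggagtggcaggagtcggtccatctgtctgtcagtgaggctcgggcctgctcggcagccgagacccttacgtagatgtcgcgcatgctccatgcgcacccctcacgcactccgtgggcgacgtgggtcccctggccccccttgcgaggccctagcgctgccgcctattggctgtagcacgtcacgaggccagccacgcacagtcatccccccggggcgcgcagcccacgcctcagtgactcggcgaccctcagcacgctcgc
Usp26, chrX:51801184-51801483, minus strand: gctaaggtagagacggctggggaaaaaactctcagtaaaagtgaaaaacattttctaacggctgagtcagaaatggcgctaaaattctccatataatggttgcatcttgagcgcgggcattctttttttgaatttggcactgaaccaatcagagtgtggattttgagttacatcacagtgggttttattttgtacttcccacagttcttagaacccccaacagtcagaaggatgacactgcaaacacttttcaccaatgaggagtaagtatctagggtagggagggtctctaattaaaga

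The Hormad1 window held 2 E-boxes, 57 and 20 bases before the start, and an E2F-type match 95 bases before it. Stk31 had an E-box 55 bases and Smc1b an E2F-type match 47 bases before the start, while the windows of Dazl and Usp26 held neither set of letters. The window of Olig2, a gene called lower and not printed, also held an E2F-type match, 62 bases before the start. CACGTG occurred in 8.09% of the 27025 promoters of the table, in 11.5% of the 11710 tested genes that could be matched, in 16.5% of 121 matched genes called higher and in 32.7% of 52 matched members of the meiosis and germ cell RNA lists, called or not. The E2F-type letters occurred in 38.7% of the matched tested genes, 33.1% of those called higher and 38.5% of the list members. Of 35 matched genes called lower, 2.86% held CACGTG and 31.4% the E2F-type letters. Of 17 matched X-linked genes called higher, 2 held CACGTG (11.8%). These shares describe letters in a window and were not tested.

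**Figure D2:**
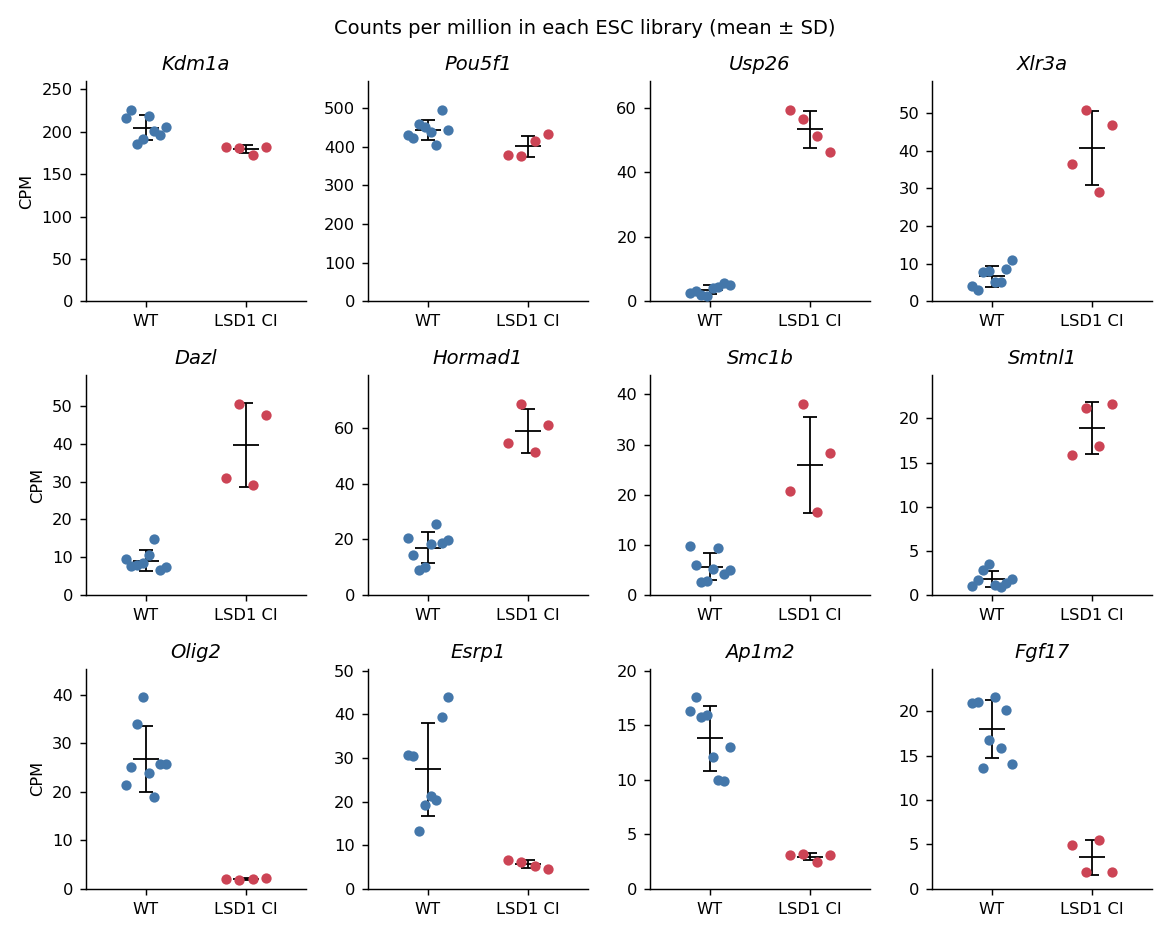
Each point is the CPM of one ESC library for 12 named genes (blue, 8 WT; red, 4 LSD1 CI), with the mean and SD of each group as black bars and each vertical axis starting at 0. Kdm1a and Pou5f1 lie at like levels in both groups, Usp26, Xlr3a, Dazl, Hormad1, Smc1b and Smtnl1 lie above WT in every LSD1 CI library, and Olig2, Esrp1, Ap1m2 and Fgf17 below it.

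Other groups of neighbouring higher genes lay on autosomes. Within 100 kb of another called gene of the same direction lay 25 of the 152 higher genes in 7 groups and 8 of the 50 lower genes in 4 groups. The X-linked run named above made up 10 of the 25. How often any tested gene has such a neighbour was not counted, so these numbers are not read as clustering. On chr2, between 84605517 and 84703743, the 4 genes Serping1, Ube2l6, Smtnl1 and Slc43a1 were all called higher. Smtnl1, a smoothelin-like protein of muscle, was 15.9, 21.2, 16.9 and 21.7 CPM in LSD1 CI against 0.952, 1.55 and 3.49 CPM in WT (3.36 ± 0.33), and Ube2l6, which conjugates the ubiquitin-like protein ISG15, was 14.7, 13.4, 17.9 and 13.8 CPM against 0.426, 1.88 and 3.02 CPM (3.08 ± 0.38). Serping1, an inhibitor of complement, and the amino acid transporter Slc43a1 differed by 1.70 ± 0.32 and 1.04 ± 0.19. On chr14 the neurofilament genes Nefl and Nefm and the antisense-named transcript A230070E04Rik, which overlaps Nefm, were called higher. Nefl was even across LSD1 CI at 29.8, 31.0, 33.8 and 30.0 CPM against 11.7, 14.2 and 21.6 CPM (1.04 ± 0.13), and lost its call without LSD1 CI library 3, without WT 11, and with WT 6 and 7 or WT 10 and 11 as the only controls, where its log2 fold change was 0.96 or 0.99 and the edgeR adjusted p was up to 0.014. Nefm was 6.59, 1.58, 7.72 and 1.596 CPM against at most 1.00 CPM, with libraries 1 and 3 well above 2 and 4, and its call (3.29 ± 0.61) was lost in 11 alternatives, without either of the former or without WT 4, 5, 7 or 9 among them (edgeR adjusted p up to 0.119).

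Single genes of large effect outside any list were Rcsd1, an actin regulator of blood cells, at 10.9, 6.31, 11.7 and 6.58 CPM against at most 0.333 CPM in WT (5.81 ± 0.65), and Pkhd1, the ciliary protein fibrocystin, at 2.94, 10.8, 1.79 and 15.2 CPM against at most 0.798 CPM (3.96 ± 0.49). Rcsd1 kept its call in all 26 alternatives, and Pkhd1 lost it with any single pair of WT libraries (edgeR adjusted p up to 0.103). Inpp5d, the lipid phosphatase SHIP1, had the smallest adjusted p of the higher genes together with Eif2s3y (edgeR, 1.9e-07) and was 219, 246, 230 and 252 CPM against 44.1, 58.7 and 69.9 CPM (2.06 ± 0.11, named after its values had been seen). Among the 202 called genes LSD1 CI libraries 1 and 3 were both above 2 and 4 in 59 and both below them in 92. The gap between the pairs exceeded 1 log2 unit in 2 genes of the first kind, Nefm and Fgf17, and in 12 of the second, Xlr3c, Aurkc, Pkhd1 and Nxf3 among them. These splits were not counted over all genes tested, so the numbers are not read as a trait of the called genes.

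Among the lower genes Olig2 changed most of those named by the rule. Olig2 (chr16:91225795-91228922), a transcription factor of oligodendrocyte and motor neuron precursors, was 2.10, 1.84, 2.04 and 2.34 CPM in LSD1 CI and 18.9, 25.4 and 39.5 CPM in WT. The LSD1 CI libraries lay close to each other and far below the lowest WT library, with a log2 fold change of −3.71 ± 0.24 (edgeR quasi-likelihood adjusted p = 1.03e-06) and a range of −4.23 to −3.34 over 26 alternatives. Its neighbour and relative Olig1 (chr16:91270014-91272184) was 4.33, 2.63, 4.26 and 3.19 CPM against 7.76, 11.8 and 16.5 CPM (−1.77 ± 0.23), a call lost with WT 8 and 9 as the only controls (edgeR adjusted p = 0.0104). Of 18 neural genes tested, Olig2, Olig1 and Gap43 were called lower and Nefl and Nefm higher, with a median of −0.28. Over all genes tested 0.332% were called lower and 1.01% higher. Gap43, a growth cone protein, was 1.03, 0.993, 1.01 and 0.551 CPM against 1.97, 6.04 and 9.90 CPM (−2.74 ± 0.43), and lost its call when LSD1 CI library 2 or 4 was left out or when WT 6 and 7 were the only controls (edgeR adjusted p up to 0.0171).

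Of all lists, that of epithelial genes held the most lower calls. Of 32 tested, 7 were called lower and none higher (0.332% of all genes were called lower), and 9 lay wholly below WT (2.34% of all genes did), with a median of −0.2. Esrp1, which directs epithelial splicing, was 6.72, 6.13, 5.33 and 4.46 CPM in LSD1 CI and 13.3, 25.9 and 43.9 CPM in WT (−2.27 ± 0.29), and Ap1m2, a subunit of the clathrin adaptor that sorts proteins to the basolateral membrane, was 3.07, 3.21, 2.45 and 3.11 CPM against 9.87, 14.4 and 17.6 CPM (−2.25 ± 0.21). Both, with Bspry (−1.74 ± 0.16) and the tight junction claudin Cldn6 (−1.63 ± 0.22), kept their calls in all 26 alternatives. The claudin Cldn7 (−1.52 ± 0.27) and the keratins Krt17 (−2.21 ± 0.31) and Krt8 (−1.94 ± 0.36) lost theirs in 5, 2 and 8 alternatives, at an edgeR adjusted p of up to 0.0709, 0.018 and 0.0793, for Krt8 without any single LSD1 CI library and for Cldn7 without library 2, 3 or 4. The remaining 25 members were not called, among them Spint2, a protease inhibitor, at 61.7, 54.1, 55.2 and 55.5 CPM against 80.6, 84.7 and 100 CPM (−0.65 ± 0.09, named after its values had been seen). None of 11 mesenchymal genes was called, and Vim, an intermediate filament gene, differed by 0.61 ± 0.08 with every LSD1 CI library above WT.

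Of the growth factor genes only Fgf17, an FGF ligand of the early embryo, was called among 20 FGF and ERK feedback genes, and none among 18 genes of the Nodal pathway. Of all genes tested 1.34% were called. Fgf17 was 4.9, 1.9, 5.5 and 1.9 CPM in LSD1 CI against 13.6, 18.5 and 21.6 CPM in WT (−2.36 ± 0.31), and its call was lost with any single pair of WT libraries (edgeR adjusted p up to 0.0234). Lefty2, an antagonist of Nodal, was 27.4, 43.1, 51.7 and 83.0 CPM against 91.3, 193 and 494.5 CPM, and its difference of −2.32 ± 0.53 did not pass (edgeR adjusted p = 0.022). The spread of Lefty2 in WT followed the split of the libraries, with WT 6 and 7 at 494.5 and 484.9 CPM.

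Of 40 imprinted genes 1 was called higher and 3 lower, against 1.01% and 0.332% of all genes. Peg12, expressed from the paternal copy, was 4.07, 6.07, 3.89 and 6.11 CPM in LSD1 CI against 0.895, 1.16 and 1.65 CPM in WT (2.01 ± 0.22), a call lost with WT 4 and 5 as the only controls (edgeR adjusted p = 0.0153). The lower genes were Nnat (−3.14 ± 0.60), and the maternally expressed neighbours Phlda2, which limits placental growth, and Slc22a18 on chr7 (150659694 to 150688429), the latter without a call in 4 alternatives (edgeR adjusted p up to 0.0724). Phlda2 was 3.88, 3.97, 3.40 and 3.63 CPM against 5.69, 11.2 and 18.04 CPM (−1.62 ± 0.26), and its call was lost when any LSD1 CI library was left out, at an edgeR adjusted p of up to 0.0245 over the alternatives. Nnat, a small membrane protein of neurons, was 1.16, 0.467, 0.461 and 0.495 CPM against 1.59, 5.49 and 10.9 CPM, and lost its call in 8 of 26 alternatives, without any of the LSD1 CI libraries or WT 6, 7 or 9 among them (edgeR adjusted p up to 0.0904). Of 31 interferon and antigen presentation genes Ube2l6 and Bst2, the antiviral tether protein, were called higher (Bst2 1.27 ± 0.25), with a median of 0.03 over the list. The call of Bst2 was lost in 13 alternatives, each removal of an LSD1 CI library among them (edgeR adjusted p up to 0.0375).

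No member was called in the lists of endoderm (14 tested), mesoderm and heart (7), trophoblast (9), two-cell-like genes (8), the integrated stress response (20), glycolysis (18), lysosome (24) or p53 targets (19). The 8 two-cell-like genes that passed the filter on low counts, of 25 listed, had a median of 1.55. Of the glycolysis genes 16 lay above 0 and 7 wholly above WT (4.46% of all genes did), with a median of 0.38. Pfkp, a subunit of phosphofructokinase, was 430, 389, 391 and 355 CPM against 224, 279 and 344 CPM (0.49 ± 0.09), under the fold threshold. Rnf213 and Psap, named for their part in the study, differed by −0.15 ± 0.13 and 0.34 ± 0.13 and were not called.

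**Figure D3:**
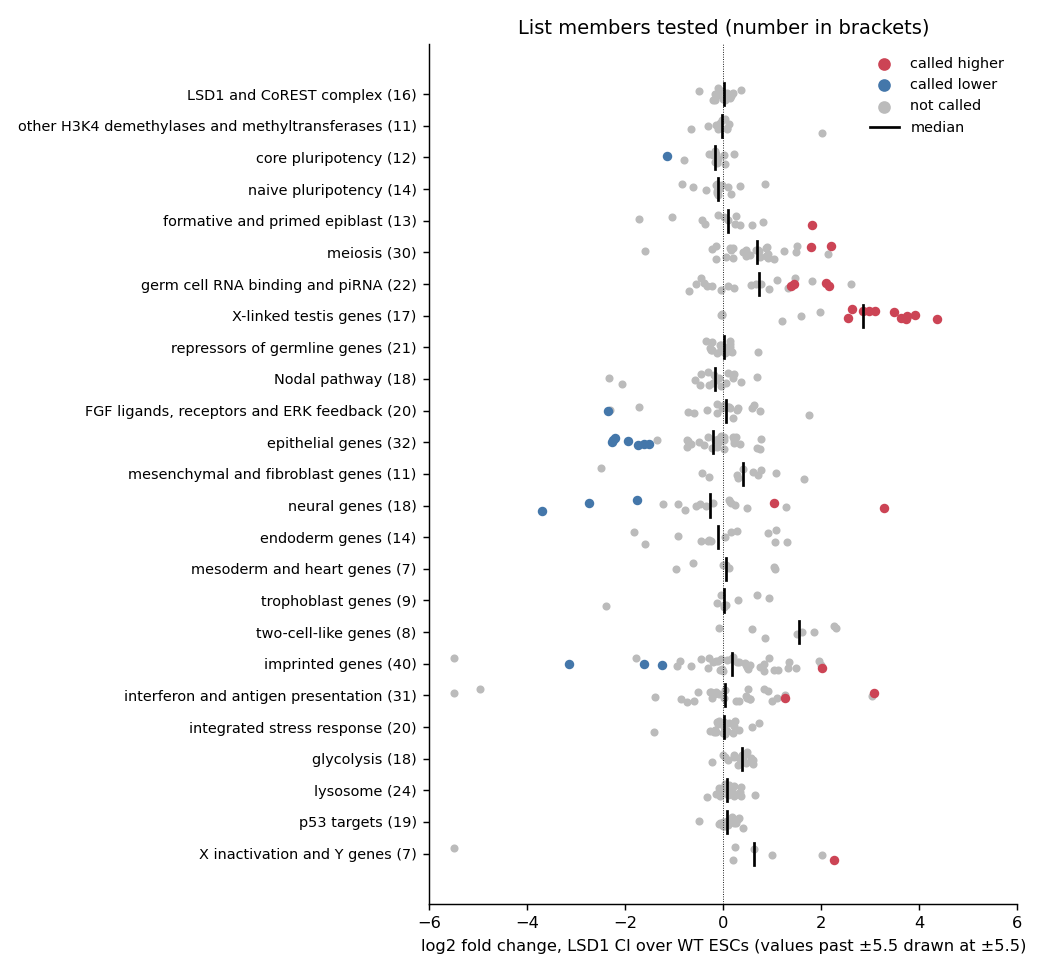
Each point is the log2 fold change of one tested member of a gene list in LSD1 CI against WT ESCs (red, called higher; blue, called lower; grey, not called), with the median of each list as a black line. The X-linked testis genes have the highest median (2.85), which the filter on low counts favours. The called epithelial members lie below −1.5, and most of the other lists lie around 0 without a call. On the lower side 3 uncalled points, past a size of 5.5, are drawn at that limit.

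Genes of the Y chromosome also differed. Eif2s3y, a translation factor gene of the Y, was 51.8, 52.6, 55.4 and 58.9 CPM in LSD1 CI and 8.74, 11.03 and 14.6 CPM in WT, a log2 fold change of 2.253 ± 0.117 (edgeR quasi-likelihood adjusted p = 1.9e-07) that kept its call in all alternatives. Zfy1, a zinc finger transcription factor, was 8.89, 15.7, 8.30 and 16.5 CPM against 0.665, 1.57 and 2.07 CPM (3.004 ± 0.257). Both were above WT in every library, and of 6 Y-linked genes tested they were the 2 called (1.01% of all genes were called higher). Ddx3y, an RNA helicase, was 52.2, 57.2, 49.6 and 61.0 CPM against 17.7, 27.8 and 37.5 CPM and stayed at the fold threshold (1.00 ± 0.16). Kdm5d, an H3K4 demethylase, was 0.453, 2.80, 0.346 and 3.19 CPM against 0.206, 0.453 and 0.532 CPM, high only in libraries 2 and 4, and was not called (2.02 ± 0.53, edgeR adjusted p = 0.038).

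The level of Eif2s3y also split libraries of one genotype elsewhere. RCOR1 KO ESCs gave 10.8, 44.9, 11.5 and 47.1 CPM, RCOR2 KO ESCs 30.4, 6.67, 29.4 and 8.70 CPM, and MLL4KO/LSD1CI ESCs 9.69, 15.7, 66.1 and 60.3 CPM. All 6 LSD1 KO libraries were between 33.9 and 44.0 CPM, and WT 1 to 3 between 7.89 and 9.85 CPM. The labels name no clone for these libraries, and the source of the split was not tested. In LSD1 CI cells Eif2s3y was high in every library of every culture, at 50.9 to 58.0 CPM in EBs, 40.6 to 42.9 CPM in serum cells and 39.5 to 42.9 CPM in EpiLCs, against at most 14.9 CPM in any WT library of those cultures.

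**Figure D4:**
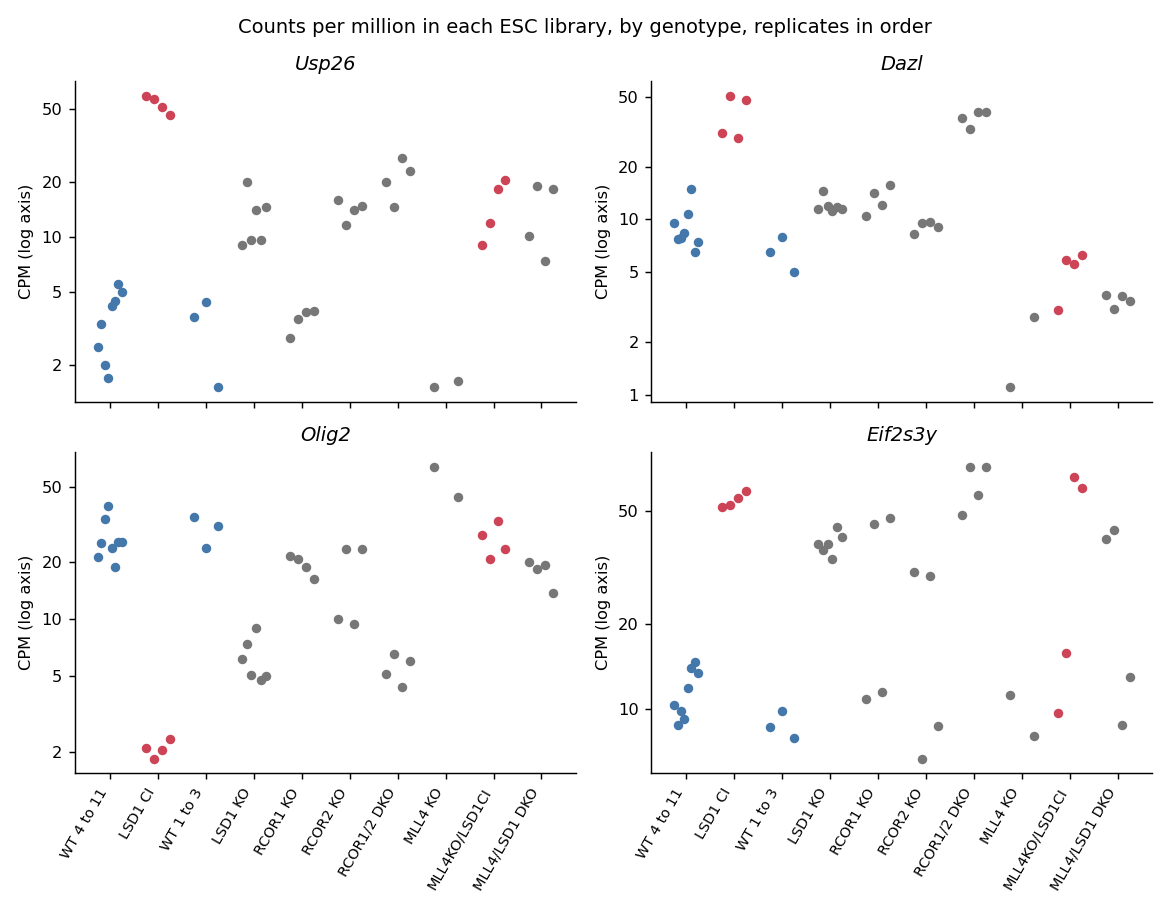
Each point is the CPM (log axis) of one ESC library, by genotype, for Usp26, Dazl, Olig2 and Eif2s3y (blue, WT; red, LSD1 CI genotypes; grey, other mutants). LSD1 CI has the highest Usp26 (46.4 to 59.3 CPM) and the lowest Olig2 (1.84 to 2.34 CPM) of all genotypes drawn, and Eif2s3y divides the libraries of several genotypes into a high and a low pair.

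Set beside the other ESC genotypes, Usp26 was 9.07 to 20.0 CPM in LSD1 KO, 14.6 to 26.9 CPM in cells without both RCOR1 and RCOR2, 11.7 to 15.9 CPM in RCOR2 KO and 2.81 to 3.95 CPM in RCOR1 KO. LSD1 CI, at 46.4 to 59.3 CPM, was above them all. Dazl was 32.6 to 40.9 CPM in the RCOR double KO, inside the LSD1 CI range, and 11.1 to 14.6 CPM in LSD1 KO. Olig2 was 4.37 to 6.52 CPM in the RCOR double KO and 4.79 to 9.02 CPM in LSD1 KO. The RCOR mutants shared WT controls with LSD1 CI, and the LSD1 KO libraries had been aligned in another way. These levels and their order are therefore only described, and no difference between genotypes was tested on them.

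The same allele was also measured in cultures with controls of their own: EBs after 6 days (4 LSD1 CI, 7 WT libraries), cells kept 4 days in serum without the naive-state factors (2 and 2) and EpiLCs after 2 days (2 and 2), the last 2 with the solvent DMSO. Of the 152 higher genes 118 could be tested in EBs, and 15 were called higher there (12.7%, or 17.6% of the 85 genes called higher in EBs, which were 0.553% of all genes tested). In serum cells 21 of 144 were called (14.6%, or 10.9% of 192, 1.24% of all) and in EpiLCs 44 of 149 (29.5%, or 21.3% of 207, 1.38% of all). The medians of the measured genes were 0.21, 0.72 and 0.98. Over both directions 1.54% of all genes were called in EBs, 1.61% in serum cells and 1.87% in EpiLCs. Of the 50 lower genes 10 of 47 were called lower in EBs (0.983% of all genes were), 5 of 48 in serum cells (0.368%) and 6 of 48 in EpiLCs (0.487%). No gene was called in the opposite direction in any of the 3 cultures. The numbers of calls in each culture moved with single libraries, so the shares are not compared between cultures. In EpiLCs the 207 higher and 73 lower genes became 55 and 11 without LSD1 CI library 1, 31 and 8 without library 2, and 502 and 265 without WT library 1. In EBs the 85 and 151 became 56 and 97, 44 and 75, and 42 and 70 without LSD1 CI library 1, 2 or 3. In serum cells the 57 lower genes became 90 without LSD1 CI library 1 and 29 without WT library 2.

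Gm364, Zfy1 and Eif2s3y were called higher in all 3 cultures and in ESCs, 12 genes in 2 cultures, 47 in 1 and 90 in none. Usp26 was 42.5 and 64.2 CPM in LSD1 CI serum cells against 1.52 and 3.95 CPM in WT, 55.2 and 60.2 CPM in EpiLCs against 6.30 and 7.09 CPM, and 2.49 to 5.79 CPM in EBs against at most 0.180 CPM. In each culture the groups were apart, though in serum cells, with 2 libraries a group, the log2 fold change of 4.33 ± 0.54 did not pass (edgeR adjusted p = 0.0225). Dazl was 6.72 and 9.48 CPM against 1.87 and 3.16 CPM in serum cells and 19.5 and 23.3 CPM against 9.14 and 12.3 CPM in EpiLCs, where it was called (1.02 ± 0.15), and was under 0.5 CPM in EBs of both genotypes. Xlr3a kept a like difference in EBs (3.04 ± 0.30) and serum cells (3.45 ± 0.43). Of the X-linked testis genes that passed the filter in each culture, 10 of 21 were called higher in serum cells, 5 of 24 in EpiLCs and 3 of 7 in EBs. Over all genes the shares called higher were 1.24%, 1.38% and 0.553%. In these cultures too the filter favours members with counts in LSD1 CI alone. Rnf17 rose in EBs, at 27.7 to 36.7 CPM against 4.67 to 10.9 CPM (2.12 ± 0.20).

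Olig2 and Olig1 were called lower in serum cells and EpiLCs too. Olig2 was 8.45 and 9.23 CPM against 23.4 and 24.1 CPM in serum cells (−1.39 ± 0.13) and 3.98 and 3.19 CPM against 7.69 and 8.05 CPM in EpiLCs (−1.12 ± 0.20), while in EBs it was at most 2.95 CPM in any library and was not called. Nhs, the X-linked gene of Nance-Horan syndrome, was the other gene called lower in 2 cultures, and in ESCs its call was lost with WT 6 and 7 as the only controls (edgeR adjusted p = 0.0154). The epithelial genes behaved otherwise. In EBs 20 of 33 were called lower (0.983% of all genes were) and none higher, with a median of −1.64 against −0.017 over all genes. Ap1m2 was 0.0615 to 0.582 CPM in LSD1 CI EBs against 11.2 to 22.5 CPM in WT (−6.09 ± 0.48). Esrp1 was 6.59 to 9.84 CPM against 67.8 to 116 CPM (−3.55 ± 0.18), and Cldn6, Cldn7 and Bspry were called as well. In serum cells 4 of 34 epithelial genes were called higher and none lower (median 0.35), and in EpiLCs 1 of 33 was called higher. Of all genes 1.24% were called higher in serum cells and 1.38% in EpiLCs. Esrp1 differed in these 2 cultures by 0.09 ± 0.07 and 0.20 ± 0.06. In bulk EBs, fewer cells of a type and less RNA per cell cannot be told apart.

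In ESCs that lack MLL4, an enhancer H3K4 methyltransferase, the allele was measured in 4 MLL4KO/LSD1CI libraries against 2 MLL4KO libraries, and MLL4 had been deleted in LSD1 CI cells, so both sides are separate lines. Only 4 genes were called there (0.0279% of 14317 tested), 3 higher (0.021%) and 1 lower (0.00698%). Sohlh2 was the 1 called of 139 measured higher genes. The 139 had a median of 0.56 against 0.008 over all genes, with 121 above 0, and the 47 measured lower genes a median of 0.03. Usp26 was 8.998, 12.0, 18.3 and 20.4 CPM against 1.52 and 1.63 CPM, above both controls in every library but short of the threshold (3.28 ± 0.38, edgeR adjusted p = 0.0219), and Olig2 was 28.0, 20.8, 32.9 and 23.4 CPM against 63.9 and 44.2 CPM. DESeq2 called 43 genes higher and 6 lower in this comparison, while edgeR called none higher without MLL4KO/LSD1CI library 3 or 4 or MLL4KO library 1, and 1 without MLL4KO library 2.

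**Figure D5:**
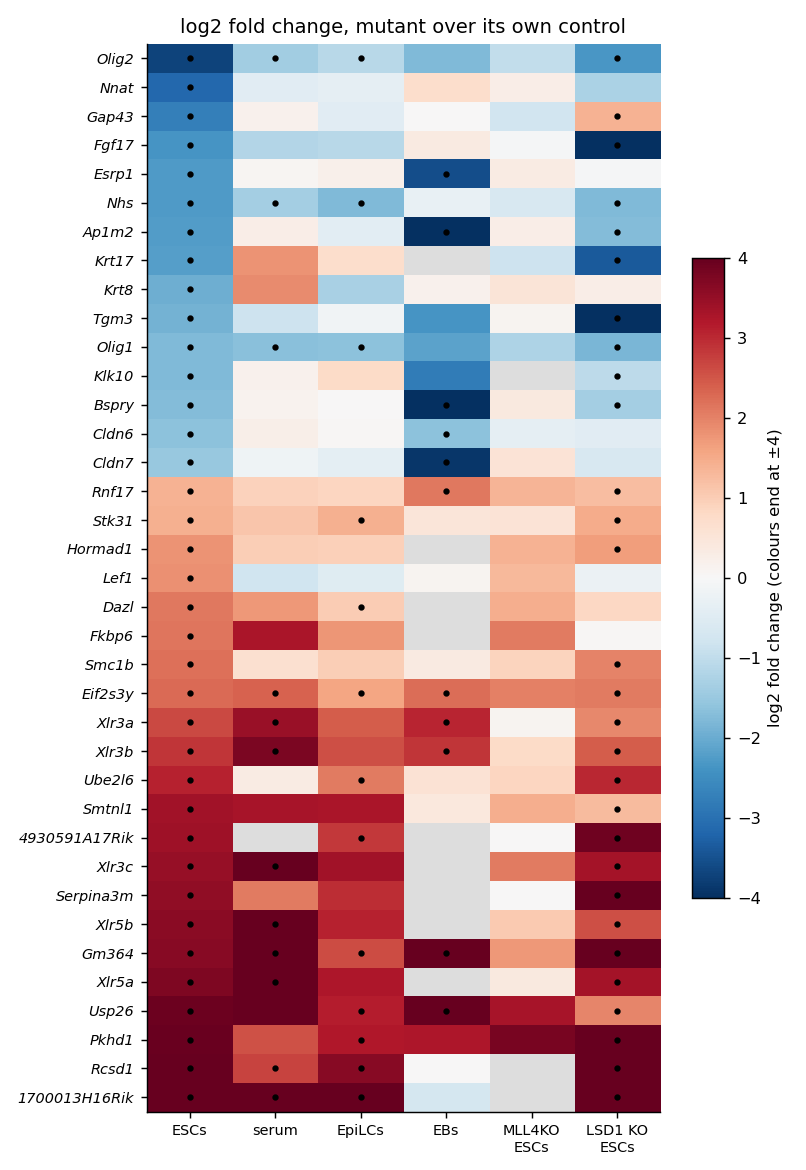
Colour gives the log2 fold change (ends at ±4) of genes named by the rule in LSD1 CI against WT ESCs, serum cells, EpiLCs and EBs, in MLL4KO/LSD1CI against MLL4KO ESCs, and in LSD1 KO against WT 1 to 3 ESCs; dots mark calls and light grey cells were not tested. The X-linked genes called higher in ESCs are red in most columns, while Nhs, also X-linked, is below 0 in every column. Olig1 and Olig2 are blue across the row, and Esrp1, Ap1m2, Bspry, Cldn6 and Cldn7 are blue in EBs and pale in serum cells and EpiLCs.

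Loss of the whole protein was compared through WT libraries of its own alignment, 6 LSD1 KO libraries against WT 1 to 3, with no control shared with LSD1 CI. Of the 152 genes higher in LSD1 CI, 96 were called higher in LSD1 KO (63.2%, or 8.42% of the 1140 genes called higher there, which were 7.06% of all tested, with 12.9% called either way), and 141 had the same sign, with a median of 1.38. Of the 50 lower genes 29 were called lower (58%, or 3.06% of 948, 5.87% of all), with a median of −1.32. Without WT library 3, 623 genes were called lower in LSD1 KO. Slc43a1, Lrp3 and Gap43 were called in the opposite direction. Gap43 was higher in LSD1 KO by 1.40 ± 0.40.

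The difference of both responses was tested in 1 fit as the LSD1 KO response minus the LSD1 CI response. Since the LSD1 CI response also chose the genes, differences in which LSD1 CI responded more strongly than LSD1 KO are favoured among them. Of the 152 genes 17 were more strongly raised in LSD1 CI and 11 in LSD1 KO, and of the 50 lower genes 10 were more strongly lowered in LSD1 CI and 4 in LSD1 KO, where 3.4% of all genes were called higher and 3.83% lower in the difference, 7.24% in all. The 619 genes called lower in the difference became 365, 1062 and 377 without WT library 1, 2 or 3, and the 550 called higher became 354 without WT library 3. Usp26 (−1.98 ± 0.42), Dazl (−1.26 ± 0.29), Smtnl1 (−2.09 ± 0.43), Fkbp6 (−2.11 ± 0.48) and Lef1 (−2.05 ± 0.43) rose further in LSD1 CI, and Fkbp6 was at 0.04 ± 0.38 in LSD1 KO. Gm364 rose further in LSD1 KO (1.99 ± 0.39). Olig2 (1.39 ± 0.32) and Esrp1 (2.22 ± 0.33) were lowered more in LSD1 CI, with Esrp1 at −0.05 ± 0.23 in LSD1 KO, and Fgf17 more in LSD1 KO (−2.31 ± 0.43). For Hormad1 (−0.13 ± 0.30), Stk31 (0.06 ± 0.28), Rnf17 (−0.16 ± 0.20), Xlr3a (−0.71 ± 0.34), Ube2l6 (−0.10 ± 0.43) and Eif2s3y (−0.19 ± 0.16) the test of the difference was not passed. Of 32 meiosis genes 10 were called higher and 2 lower in LSD1 KO, and of 33 epithelial genes 8 higher and 6 lower, where 7.06% of all genes were called higher and 5.87% lower.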

How the data were processed

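RNA from the ESCs was depleted of ribosomal RNA and sequenced as paired ends with a stranded kit. The authors trimmed reads, aligned them to mm9 with STAR 2.7.9a, removed duplicates with Picard 2.25.5 and counted reads per gene by strand with featureCounts. The deposited values are raw counts of 25209 genes, and 62 libraries were used. Among low counts 75.73% to 83.68% were even in the 12 ESC libraries, so both mates of a read pair were mostly counted and a fragment mostly gave 2 counts. Total counts (17.22 M to 40.71 M, in units of 1e6) therefore overstate the depth, and precision rests on the spread between libraries.

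The counts were filtered on low values, scaled by TMM and tested with edgeR 4.0.16 (quasi-likelihood, Benjamini-Hochberg adjustment) in R 4.3.3, LSD1 CI against WT only. Calls needed an adjusted p below 0.01 and a log2 fold change past 1. CPM values are counts scaled to a library total of 1e6. In simulated data on 15069 genes, 75.5% of genes changed by 1.5 on the log2 scale and 94.8% of those changed by 3 were called. The simulated libraries varied independently of each other, without the split within WT or between the pairs of LSD1 CI libraries. These shares therefore need not hold for the measured libraries.

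Named genes were the genes central to the study, up to 12 called genes in each direction with the largest change, a group mean of 5 CPM or more and libraries apart, and per list of 25 up to 6 called members or, without a call, 2. Neighbours of called genes, Y-linked genes, repressor complex members and others outside that rule were chosen after their values were seen. The members and lists were chosen with earlier results of these data known. DESeq2 1.42.0, sva 3.50.0, other WT libraries, other filters and left-out libraries were the alternatives.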

Additional observations from a re-analysis of the deposited data

Results flagged for a closer look

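Among 168 groups of libraries of named genes, 5 held a library far from the rest of its group, and chance alone gives about 1 in 20. In LSD1 CI ESCs these were library 3 for Kdm1a (172.5 CPM, the next at 181.0 CPM) and Hmg20b, a partner of the CoREST complex (24.95 CPM, the next at 21.04 CPM), library 1 for Nnat (1.164 CPM) and library 4 for Gap43 (0.5505 CPM). In WT ESCs it was library 11 for Cldn6 (20.06 CPM, the next at 13.49 CPM).

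The response of named genes differed between LSD1 KO and LSD1 CI ESCs in the fit of the difference (edgeR quasi-likelihood, LSD1 KO minus LSD1 CI, log2 ± standard error). Lower in that difference were Kdm1a (−4.72 ± 0.19), Fgf17 (−2.31 ± 0.43), Fkbp6 (−2.11 ± 0.48), Smtnl1 (−2.09 ± 0.43), Lef1 (−2.05 ± 0.43), Usp26 (−1.98 ± 0.42), Atf4, the main factor of the integrated stress response (−1.37 ± 0.11), Dazl (−1.26 ± 0.29), Slc22a18 (−1.22 ± 0.31) and the glycolytic isomerase gene Gpi1 (−1.1 ± 0.16). Higher were Plac8 (7.29 ± 0.87), Gap43 (4.15 ± 0.56), the laminin gene Lamb1 (2.59 ± 0.27), Krt8 (2.23 ± 0.46), Esrp1 (2.22 ± 0.33), the p53 target Perp (2.15 ± 0.29), Gm364 (1.99 ± 0.39), Olig2 (1.39 ± 0.32), Rnf213 (1.33 ± 0.20), Cldn6 (1.19 ± 0.30) and Psap (1.03 ± 0.19).

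Some genes changed one way in every LSD1 CI ESC library and lay on the opposite side of the control in every mutant library of another culture. These differences between cultures were not tested, and none of the opposite changes was called in its own culture. Serum cells and EpiLCs have only 2 libraries a group and the MLL4KO background 2 controls, so libraries stand apart easily. How often any tested gene does so was not counted, and the genes below are not read as reversed. Lower in ESCs but higher elsewhere, as the median of the mutant against that of its control, were Esrp1 in serum cells (123.3 against 119.2 CPM), EpiLCs (164.3 against 144.2 CPM) and the MLL4KO background (7.378 against 6.019 CPM), Ap1m2 and Bspry in serum cells (41.58 against 35.21 CPM and 41.46 against 38.64 CPM), Krt17 in serum cells and EpiLCs (1.519 against 0.4483 CPM and 1.495 against 0.9308 CPM), Krt8 in serum cells (371.1 against 103.3 CPM) and Nnat in the MLL4KO background (11.17 against 9.508 CPM). Lef1 was higher in LSD1 CI ESCs and lower in serum cells (55.65 against 98.1 CPM) and EpiLCs (135 against 189.6 CPM).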

How the results depend on the processing

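The genes called higher and lower in LSD1 CI ESCs, 152 and 50, became 257 and 202 with DESeq2, 273 and 269 with all ESC groups of the same alignment in the fit, 313 and 375 with an alignment term, 362 and 552 with WT 6 and 7 as the only controls, 298 and 738 with WT 10 and 11 only, 383 and 136 with 2 surrogate variables, and 287 and 101 without WT 6, 7, 10 and 11 (added after seeing the data). Leaving out 1 library gave 80 to 161 and 22 to 57, where the libraries of WT were added after seeing the data. Over the alternatives 33 higher and 9 lower genes stayed called throughout, and 0 changed sign. Of 84 named genes 45 were called, of which 20 kept the call throughout and 0 were reversed. The members of any list called (39) were 59 with DESeq2, 61 and 65 in the fits of all ESC groups without and with the term, 60 with WT 10 and 11 only and 64 with surrogate variables. The X-linked testis genes called (11) were 7 with WT 6 and 7 only, and the meiosis and germ cell RNA genes (6) were 11, 11 and 12 in the first 3 of those settings, 12 with WT 6 and 7 only, 3 with WT 8 and 9 only and 10 with surrogate variables. X-linked genes called higher (18) were 28 and 32 in the fits of all ESC groups, and Y-linked genes (2) were 5 in both, and 4 with WT 4 and 5 only, with surrogate variables and without WT 6, 7, 10 and 11. The sign turned for Sox2 (−0.02 to 0.10 when 1 library was left out, −0.21 with WT 6 and 7 only, and −0.12 with WT 10 and 11 only, −0.01 without LSD1 CI library 4, −0.02 without WT 9), Nanog (−0.02 to 0.07 when 1 library was left out, −0.03 with WT 10 and 11 only, −0.02 without LSD1 CI library 3), Esrrb (0.06 with WT 8 and 9 only) and Psap (−0.03 with WT 6 and 7 only), none of them called. The cause of these shifts was not tested.

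No paired analysis was possible for LSD1 CI against WT ESCs because the groups share only the number 4. Elsewhere the labels give no shared animal, batch or day, and same-numbered libraries correlated by −0.16 to 0.12 in EBs (4 pairs), −0.03 in EpiLCs (2 pairs), 0.39 in serum cells (2 pairs), 0.43 to 0.49 in the MLL4KO background (2 pairs) and 0.09 to 0.14 in LSD1 KO (3 pairs). In serum cells, the MLL4KO background and LSD1 KO every library correlated best with its own number, a hint from the data and not the design. This was not taken as pairing, since the first 2 have only 2 pairs and the lowest LSD1 KO correlation was 0.09. The replicate block gave 4 higher and 32 lower genes in EBs, 589 and 181 in serum cells, 365 and 157 in EpiLCs, 42 and 13 in the MLL4KO background, and 196 and 101 for the LSD1 KO minus LSD1 CI difference. DESeq2 gave 181 and 397 in EBs, 496 and 143 in serum cells, 43 and 6 in the MLL4KO background and 918 higher in the difference, and no filter gave 333 and 107 in serum cells, 352 and 172 in EpiLCs and 10 and 2 in the MLL4KO background. Leaving out 1 library gave 42 to 75 and 70 to 131 in EBs, 131 to 274 and 29 to 90 in serum cells, 31 to 502 and 8 to 265 in EpiLCs, 0 to 3 and 1 in the MLL4KO background, 804 to 1135 and 623 to 1384 in LSD1 KO, and 354 to 657 and 365 to 1062 in the difference. With 2 libraries a group, a lone library was assumed to vary like the other group. In EBs no WT library was left out. For LSD1 KO and the difference only WT or LSD1 CI libraries were left out, so these ranges do not show dependence on any LSD1 KO library.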

Other observations

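Grb10, an imprinted gene for an adaptor that dampens insulin and growth factor signalling, was chosen for this paragraph after its values had been seen. In ESCs Grb10 was 44.8, 50.8, 40.6 and 42.3 CPM in LSD1 CI libraries 1 to 4 and 63.4 (lowest), 82.1 (median) and 115.8 CPM (highest) in WT, below WT in every library but under the fold threshold (log2 fold change −0.88 ± 0.13). In the other comparisons of the allele Grb10 was called lower each time, by −7.31 ± 0.20 in EBs, −2.08 ± 0.07 in serum cells, −1.79 ± 0.17 in EpiLCs and −2.75 ± 0.16 in the MLL4KO background, and it was lower by −1.43 ± 0.14 in LSD1 KO ESCs (edgeR quasi-likelihood test, ± standard error). The EB value was the lowest of these, and its difference from the ESC value was not tested.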
